A study of Homo sapiens with 6 samples.

Results

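The genes described here are the members of 7 solute carrier (SLC) families that hold many of the amino acid transporters of human cells. They were chosen by name alone, as every row of the count table that begins with SLC1A, SLC3A, SLC6A, SLC7A, SLC36A, SLC38A or SLC43A, and 50 of the 16720 named rows met this rule. One of them, SLC7A6OS, matches by spelling but encodes no transporter. Another 9 members carry nucleobases, creatine, taurine, betaine, GABA or monoamines, and without these and SLC7A6OS the set held 40 members. The cells were Hep3B, an established line from a human hepatocellular carcinoma. The sgControl group held 3 RNA-seq libraries from cells labelled wild type, and the sgRFX6 group held 3 libraries from cells labelled RFX6 knockout. The control columns of the table name no guide and were taken as sgControl, the only control group, and the knockout columns carry the number of guide sg3. Guides were delivered with a lentiviral CRISPR vector, cells were selected with puromycin and single-cell-derived clones were expanded, so a knockout library may stand for 1 clone. The labels do not say that the libraries came from separate cultures, and the p-values then measure only the spread between these libraries. Total counts per library ranged from 16730374 to 25070770.

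Amino acids cross the plasma membrane and the lysosomal membrane through carriers that differ in substrate and in what drives them. The SLC3A proteins are heavy chains that join an SLC7A light chain by a disulphide bond and bring it to the cell surface, and most of these pairs exchange one amino acid for another. SLC1A, SLC6A and SLC38A carriers use the sodium gradient, SLC36A carriers use protons, and SLC43A carriers let their substrates pass down the concentration gradient. In liver, hepatocytes take up alanine, glutamine and cationic amino acids for gluconeogenesis, the urea cycle and protein synthesis, and carcinoma cells often take up glutamine and leucine through SLC1A5 and the SLC7A5 pair.

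RFX6 is a winged-helix transcription factor. The guide sg3 is shown because it defines the knockout group. It lies in exon 3 of 19 of RFX6, on the plus strand of GRCh38 at chr6:116880567-116880586, and the capitals mark the PAM that follows its 20 bases.
RFX6 sg3: gtgaaggagtttgcttaccaCGG
RFX6 RNA was counted 117, 144 and 170 times in sgControl libraries 1 to 3 and 69, 59 and 77 times in sgRFX6 libraries 1 to 3. Scaled to counts per 1000000 counts (CPM) of the TMM-corrected library, this was 6.27 ± 0.931 against 3.54 ± 0.146 (SD, n = 3 each). The groups did not overlap, but the log2 fold change of -0.82 did not pass the test (SE 0.26, edgeR adjusted p = 0.142, exact permutation p = 0.1, the smallest that 3 against 3 libraries allow). RNA that carries a small deletion can still be counted, so the level alone does not check the knockout.

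Of the 50 members, 37 had enough counts to be tested. At an adjusted p under 0.05 in edgeR's quasi-likelihood test, 1 member was higher in sgRFX6 (SLC43A3) and 2 were lower (SLC7A2 and SLC7A8). This is 3 of 37, beside 3.74% of all 12839 genes tested, 1.92% higher and 1.81% lower. The log2 fold changes of the members ran from -1.89 to 2.76, with 19 above 0, 18 below 0 and a median of 0.03, beside 0.02 over all tested genes. The 3 sgRFX6 values lay above all 3 sgControl values for 8 members and below them for 6, where the shares over all tested genes were 12.0% and 11.2%. Among the 8 is SLC1A2, which passed the filter on low counts only through its sgRFX6 libraries. Without SLC7A6OS and the members that carry no proteinogenic amino acid, 0 of 31 were higher by edgeR and 2 were lower, and 9 of the 31 had an unadjusted p under 0.05, beside 15.6% of all genes tested. DESeq2 called 1 of these higher (SLC7A9). The count depends on the model. It was 5 of 37 with DESeq2, 8 of 37 when the GC content of the transcripts was corrected, and 16 of 37 with limma-voom and sample quality weights, settings in which 6.97%, 11% and 31.1% of all genes were called.

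**Figure D1:**
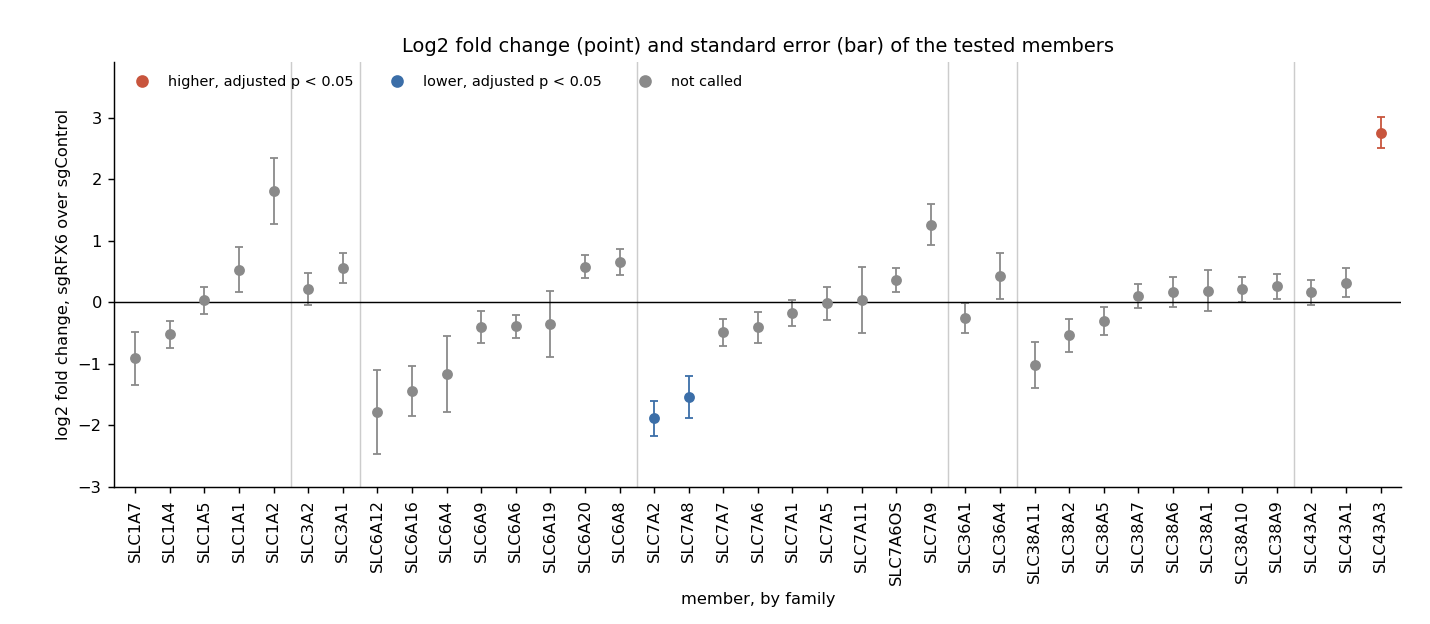
Log2 fold change of sgRFX6 over sgControl (y axis) for the 37 tested members, ordered within each family (x axis), with points for the estimate and bars for its standard error. SLC43A3 stands at 2.76, SLC7A2 at -1.89 and SLC7A8 at -1.54, and the other 34 members, in grey, were not called.

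The libraries of a group were not equally alike, and this touched many members. The chi-square per degree of freedom over genes was 16.2 between sgControl libraries 1 and 3 and 17.9 between sgRFX6 libraries 1 and 2, but 68.7 to 117 in the pairs that held sgControl library 2 or sgRFX6 library 3. In sgRFX6 library 3 the difference from the other libraries of its group fell with the GC content of the transcript (Spearman -0.90 over the 37 tested members, -0.86 over 12210 genes that share these libraries, given as a description). For sgControl library 2 the same values were 0.09 and 0.42. The members' transcripts ran from 35.0% to 64.3% GC, with a median of 51.0%, and AT-rich members such as SLC7A11, SLC38A1 and SLC36A4 read high in sgRFX6 library 3. The log2 fold change between the groups had a Spearman correlation of 0.00 with GC content over the tested members. When both libraries were left out, 13 of 37 members were called, in a setting that called 25.2% of all genes.

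**Figure D2:**
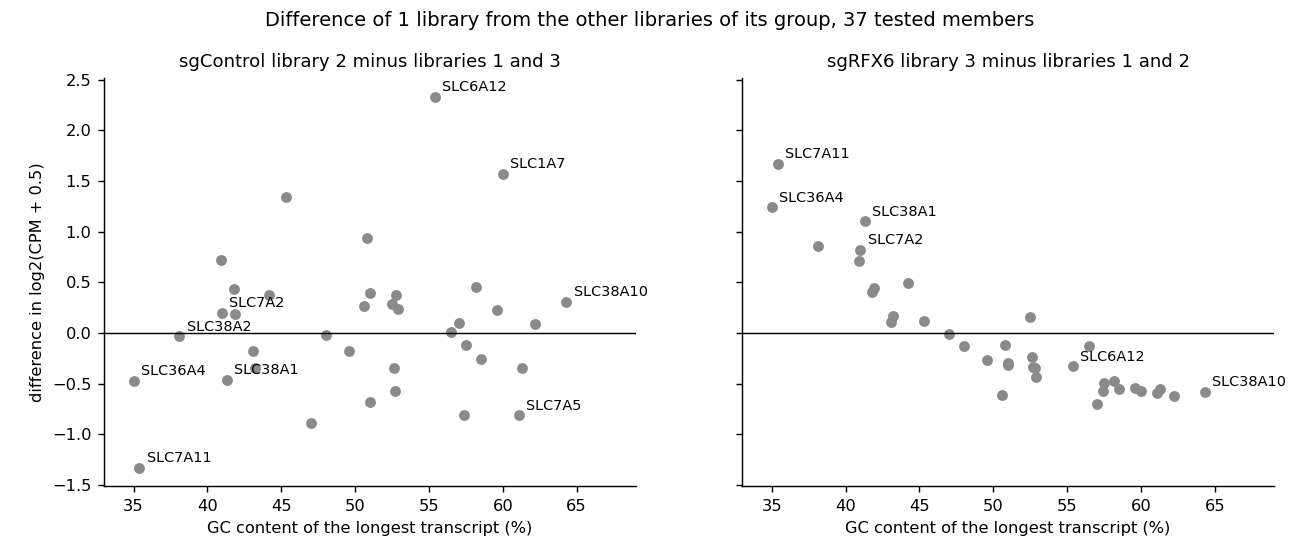
Difference in log2(CPM + 0.5) between 1 library and the mean of the other libraries of its group (y axis) against the GC content of the longest transcript in percent (x axis), 1 point per tested member. In the panel of sgRFX6 library 3 the points fall from SLC7A11 at the top left to the GC-rich members at the right, and in the panel of sgControl library 2 they scatter, with SLC6A12 and SLC1A7 highest.

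The cells were checked against liver markers. All 10 were in the table, with HNF4A at 109 to 161 CPM and ALB at 12.9 to 32.1 CPM over the 6 libraries, while TTR stayed under 1 CPM. The sgControl mean was 66.6 CPM for APOB, 26.4 for FGB and 9.14 for SERPINA1. It was only 2.17 CPM for TF, 2.03 for AFP, 1.83 for AHSG and 1.06 for APOA1. The summed level of the 10 was 260 to 307 CPM in sgControl and 209 to 225 CPM in sgRFX6, mostly from HNF4A and APOB. Within that list AFP and AHSG were called higher, at log2 fold changes of 2.82 and 1.68, and FGB lower, at -2.45. Of the 5 fibroblast markers, COL1A1, COL1A2 and PDGFRA were called lower. In sgRFX6 libraries 1 to 3, COL1A2 was counted 2, 2 and 4 times and PDGFRA 2, 3 and 0 times. Both passed the filter on low counts, at about 0.484 CPM, only through their sgControl libraries. Their calls are to be read with that limit. LUM held most of the fibroblast sum of 27.3 to 33.8 CPM in sgControl and 21.2 to 56.1 CPM in sgRFX6. Of the 5 leukocyte markers, the T cell gene CD3E was at or below 3 counts in every library and CD68 held most of the sum of 64.5 to 160 CPM over all libraries. Endothelial markers summed to 11.6 to 19.6 CPM, and CDH5 was not in the table. Of the neuronal and islet markers, SYP gave nearly all of the 0.647 to 1.63 CPM and CHGA was at or below 3 counts. The part of these markers in the members' values was not tested, and in bulk RNA fewer cells of a type and less RNA per cell cannot be told apart.

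A few carriers held most of the members' reads. All members together summed to 5960, 4932 and 5255 CPM in sgControl and 5758, 5402 and 4970 CPM in sgRFX6, so the groups overlapped, and the 7 highest members took 72.8% to 76.7% of the sum. Per kilobase of the longest annotated transcript, which allows genes to be compared, the highest mean level over the 6 libraries was that of SLC1A5 (290 CPM per kb), the sodium-dependent glutamine carrier ASCT2. It was followed by SLC3A2 (196), SLC6A8 (171), SLC7A5 (141) and SLC6A6 (105), and then by SLC38A2 (76.9) and SLC38A1 (52.9). The highest SLC43A member was SLC43A1 (17.0) and the highest SLC36A member SLC36A1 (6.72). In every library 9 members were above 100 CPM and 33 above 1 CPM. The 3 called members were not among the abundant ones, with means of 4.01 CPM per kb for SLC7A2, 3.41 for SLC43A3 and 0.765 for SLC7A8.

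**Figure D3:**
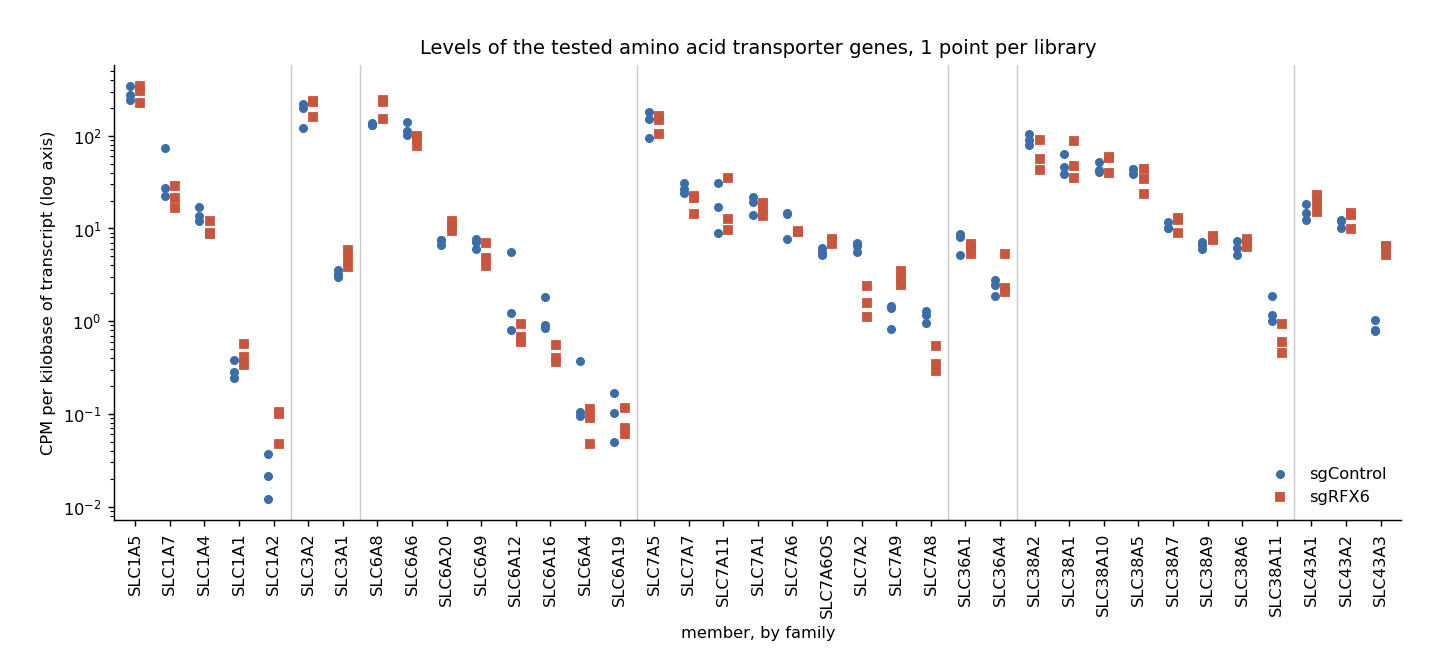
CPM per kilobase of transcript on a log axis (y axis) for the 37 tested members, by family and then by mean level (x axis), 1 point per library, circles for sgControl and squares for sgRFX6. SLC1A5, SLC3A2, SLC6A8 and SLC7A5 lie at the top, and SLC1A2 lies at the bottom. The circles and squares do not overlap for the called SLC43A3, SLC7A2 and SLC7A8, nor for some members not called.

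Among the heteromeric transporters the light chain of LAT2 was lower in sgRFX6 and that of LAT1, its abundant relative, was not called. Both exchange large neutral amino acids in a pair with SLC3A2, the heavy chain of CD98. SLC7A8 (LAT2, chr14:23125295-23183674, minus strand) was measured at 4.05, 5.38 and 4.96 CPM in sgControl and at 2.28, 1.44 and 1.23 CPM in sgRFX6. The highest sgRFX6 value was below the lowest sgControl value, and the log2 fold change was -1.54 (SE 0.34, edgeR adjusted p = 0.0419), a 2.90-fold lower level. The call was lost whenever any 1 of the 6 libraries was left out, with edgeR adjusted p between 0.0634 and 0.15.

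SLC7A5 (LAT1, chr16:87830023-87869488) was measured at 816, 427 and 693 CPM in sgControl and 677, 751 and 475 CPM in sgRFX6. The groups overlapped fully, the log2 fold change was -0.02 (SE 0.27, edgeR adjusted p = 0.981), and its sign changed with single libraries. SLC7A8 thus amounted to 0.496% to 1.26% of the SLC7A5 CPM in sgControl and 0.192% to 0.337% in sgRFX6. The heavy chain SLC3A2 (chr11:62856102-62888875) gave 494, 269 and 448 CPM against 520, 526 and 352 CPM, again with overlap (log2 fold change 0.21, SE 0.26, edgeR adjusted p = 0.804). The ratio of SLC7A5 to SLC3A2 per kilobase was 0.809, 0.779 and 0.757 in sgControl and 0.637, 0.699 and 0.661 in sgRFX6. These ratios did not overlap and are given as a description.

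The second heavy chain, SLC3A1 (rBAT), pairs with SLC7A9 to carry cystine and dibasic amino acids, chiefly in kidney and gut. SLC7A9 (chr19:32830509-32869766) gave 1.44, 2.59 and 2.46 CPM in sgControl and 6.06, 5.28 and 4.31 CPM in sgRFX6. The groups stood apart, but the log2 fold change of 1.26 missed the threshold (SE 0.33, edgeR adjusted p = 0.0786), the nearest to it among the members not called. SLC3A1 (chr2:44275458-44321494) gave 8.91, 10.7 and 9.67 CPM against 14.1, 11.6 and 17.5 CPM, also without overlap (log2 fold change 0.56, SE 0.24, edgeR adjusted p = 0.303). SLC3A1 overlaps PREPL on the other strand, and whether the counting used strand is not given in the sources used here.

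The promoter letters of SLC7A8, SLC7A5 and SLC7A9 are shown to set the light chain that was called beside its abundant relative and beside the light chain nearest to the threshold. Each run holds the 250 bases before a RefSeq start on GRCh38.p14, read on the minus strand, and capitals mark an E-box (CACGTG), the letters bound by many basic helix-loop-helix factors. For SLC7A8 the outermost of 4 listed starts is shown (chr14:23183661-23183910), for SLC7A5 chr16:87869508-87869757 and for SLC7A9 chr19:32869768-32870017.
SLC7A8: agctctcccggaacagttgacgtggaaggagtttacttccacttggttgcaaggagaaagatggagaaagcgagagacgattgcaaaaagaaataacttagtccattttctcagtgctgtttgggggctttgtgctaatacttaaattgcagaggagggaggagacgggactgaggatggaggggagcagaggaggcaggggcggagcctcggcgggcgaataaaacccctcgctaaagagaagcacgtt
SLC7A5: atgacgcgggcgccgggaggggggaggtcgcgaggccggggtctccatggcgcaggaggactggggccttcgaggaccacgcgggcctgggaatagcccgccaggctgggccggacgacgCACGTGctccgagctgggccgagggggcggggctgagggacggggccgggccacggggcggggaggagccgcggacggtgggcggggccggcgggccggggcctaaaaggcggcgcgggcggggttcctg
SLC7A9: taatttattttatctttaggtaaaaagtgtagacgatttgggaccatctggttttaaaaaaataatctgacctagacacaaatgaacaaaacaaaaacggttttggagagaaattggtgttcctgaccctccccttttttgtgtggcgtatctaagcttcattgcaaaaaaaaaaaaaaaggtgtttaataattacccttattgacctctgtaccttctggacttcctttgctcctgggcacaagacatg
The SLC7A5 run holds 1 E-box, whose first base lies at -130 from the start, and the other runs shown hold none of the motifs searched. An inner start of SLC7A8 holds an E-box at -129.

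The remaining light chains gave no call. SLC7A7, which pairs with SLC3A2 and exports cationic amino acids, was measured at 59.2, 75.1 and 65.5 CPM in sgControl and 55.3, 51.9 and 34.8 CPM in sgRFX6. The sgRFX6 values were all the lower ones (log2 fold change -0.49, edgeR adjusted p = 0.324). SLC7A6, a close relative with the same partner, had a log2 fold change of -0.41 (edgeR adjusted p = 0.497), and it shares its locus with the antisense row SLC7A6OS at 0.36. SLC7A11 (xCT), which imports cystine for glutathione in exchange for glutamate, varied more between libraries than between groups. It gave 295, 86.9 and 163 CPM against 122, 94.0 and 342 CPM (log2 fold change 0.04, SE 0.54, edgeR adjusted p = 0.986). The highest sgRFX6 value is that of library 3, and without both libraries that stood apart the log2 fold change was -1.08 (edgeR adjusted p = 0.015). SLC7A10 was at or below 3 counts in every library. In all, 6 of the 7 light chains were tested, with 0 higher and 1 lower by edgeR (all genes called 3.74%). By DESeq2, 1 was higher and 1 lower (all genes called 6.97%). In edgeR, 2 of the 6 had an unadjusted p under 0.05 (all genes 15.6%).

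**Figure D4:**
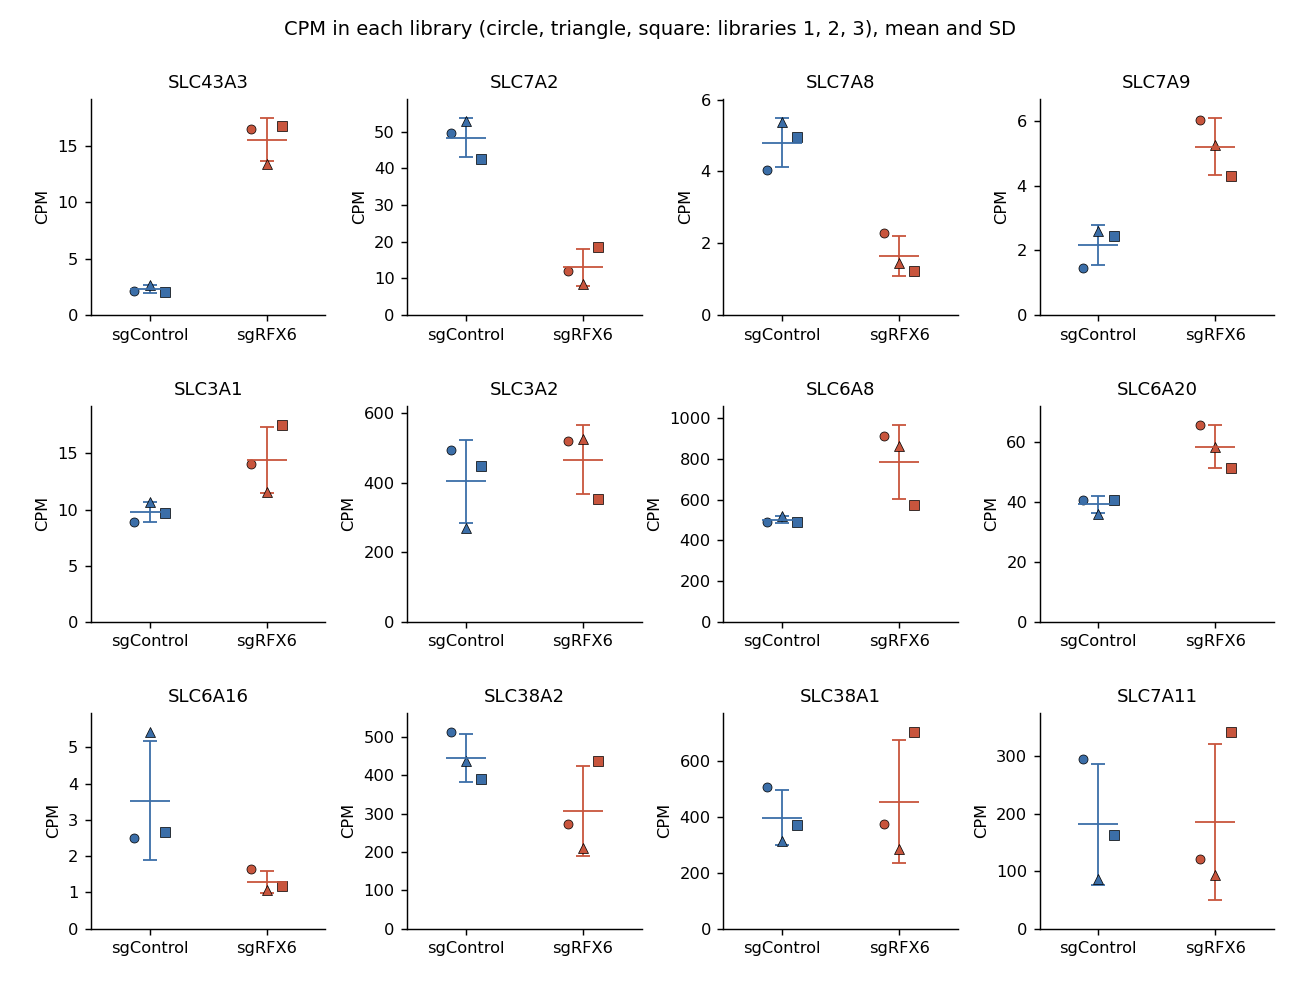
CPM (y axis, from 0) in each library of sgControl and sgRFX6 (x axis) for 12 members, with circles, triangles and squares for libraries 1, 2 and 3, a horizontal line for the mean and bars for the SD of 3 libraries. The groups are separated for SLC43A3, SLC7A2, SLC7A8, SLC7A9, SLC3A1, SLC6A8, SLC6A20 and SLC6A16. For SLC38A1 and SLC7A11 the square of sgRFX6 is the highest of all libraries.

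Of the pair of cationic carriers that work without a heavy chain, 1 was lower in sgRFX6. SLC7A2 (CAT2, chr8:17497088-17570573), an arginine, lysine and ornithine carrier known from liver, was measured at 49.5, 52.9 and 42.5 CPM in sgControl and 12.1, 8.54 and 18.4 CPM in sgRFX6. The lowest sgControl value was more than 2 times the highest sgRFX6 value, and the log2 fold change was -1.89 (SE 0.29, edgeR adjusted p = 0.00964), a 3.70-fold lower level. Across the alternatives it ran from -2.22 to -1.66. The call held in 14 of 15, and without sgRFX6 library 1 the edgeR adjusted p was 0.0536. The median log2 fold change of its 50 nearest tested genes was 0.09. SLC7A1 (CAT1), the widely expressed cationic carrier, gave 161, 102 and 143 CPM against 139, 118 and 101 CPM, with overlap (log2 fold change -0.18, edgeR adjusted p = 0.787).

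The largest change of any tested member was in the SLC43A family. SLC43A3 (chr11:57406954-57427580, minus strand), which is known as a purine nucleobase transporter and not as an amino acid carrier, was counted 44, 66 and 48 times in sgControl and 333, 214 and 369 times in sgRFX6. This was 2.12, 2.67 and 2.07 CPM against 16.5, 13.4 and 16.8 CPM, so every sgRFX6 library was far above every sgControl library. The log2 fold change was 2.76 (SE 0.26, edgeR adjusted p = 0.00123), or 6.79-fold. It was called in 15 of 15 alternatives, between 2.71 and 2.90. Around it, the median log2 fold change over the 50 tested genes closest by was 0.41. SLC43A1 (LAT3, chr11:57484534-57515786), which carries leucine and other branched-chain amino acids and lies on the same stretch of chromosome 11, gave 37.7, 48.1 and 32.4 CPM against 59.6, 48.9 and 38.8 CPM (log2 fold change 0.32, edgeR adjusted p = 0.599). SLC43A2 (LAT4) had a log2 fold change of 0.16 (edgeR adjusted p = 0.791).

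None of the 5 tested SLC1A members was called by edgeR (all genes 3.74%) or by DESeq2 (all genes 6.97%). In edgeR 2 had an unadjusted p under 0.05 (all genes 15.6%), and limma-voom called 1, SLC1A2 (all genes 31.1%). SLC1A5 was measured at 995, 695 and 789 CPM in sgControl and 1001, 885 and 643 CPM in sgRFX6, with overlap (log2 fold change 0.03, SE 0.22, edgeR adjusted p = 0.975). SLC1A4 (ASCT1), which carries alanine, serine and cysteine, had a log2 fold change of -0.52 (edgeR adjusted p = 0.282). The glutamate carrier SLC1A2 was near the detection limit, at 0.144, 0.445 and 0.259 CPM against 1.19, 0.565 and 1.27 CPM. The groups did not overlap, and the log2 fold change was 1.81 (SE 0.53, edgeR adjusted p = 0.116). SLC1A2 passed the filter on low counts, at about 0.484 CPM, only through its 3 sgRFX6 libraries, the 1 member to do so. Its place among the tested members rests on that filter, and its sgControl libraries held only 3, 11 and 6 counts. Its separation and its limma-voom call are to be read with these limits. SLC1A7, another glutamate carrier, was high in sgControl library 2 alone, at 195 CPM beside 43.5 to 74.9 CPM in the other 5 libraries.

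The SLC38A carriers of glutamine and other small neutral amino acids gave 0 calls among 8 tested by edgeR (all genes 3.74%). Of these 8, 1 had an unadjusted p under 0.05 (all genes 15.6%). DESeq2 called 0 (all genes 6.97%) and limma-voom 3 (all genes 31.1%). SLC38A2 (SNAT2), known to rise when cells lack amino acids, was measured at 512, 436 and 389 CPM in sgControl and 274, 210 and 436 CPM in sgRFX6. Only sgRFX6 library 3 reached the sgControl range, and the log2 fold change was -0.54 (SE 0.27, edgeR adjusted p = 0.393). With GC content corrected it was -0.63 (adjusted p = 0.0322), 1 of 4 alternatives in which it was called. SLC38A1 (SNAT1) gave 508, 315 and 371 CPM against 377, 284 and 704 CPM, and the direction of its log2 fold change of 0.19 (edgeR adjusted p = 0.868) rests on the last value. SLC38A11 gave 4.38, 7.0 and 3.75 CPM against 2.23, 1.70 and 3.50 CPM, without overlap (log2 fold change -1.02, SE 0.38, edgeR adjusted p = 0.221). SLC38A9, the lysosomal arginine sensor of mTORC1, gave 21.1, 17.7 and 19.2 CPM against 21.9, 23.2 and 24.4 CPM (log2 fold change 0.26, edgeR adjusted p = 0.610), and overlaps DDX4.

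Of the 2 tested SLC36A members edgeR called 0 (all genes 3.74%), with 0 at an unadjusted p under 0.05 (all genes 15.6%). DESeq2 called 0 (all genes 6.97%) and limma-voom 1, SLC36A1 (all genes 31.1%). SLC36A1 (PAT1), a proton-coupled carrier of small neutral amino acids on lysosomes and the cell surface, was measured at 47.0, 30.1 and 49.8 CPM in sgControl and 35.8, 39.7 and 30.6 CPM in sgRFX6. These values overlapped (log2 fold change -0.26, edgeR adjusted p = 0.703). SLC36A4 read 31.5 CPM in sgRFX6 library 3 and 11.3 to 16.7 CPM in the other libraries.

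The SLC6A family holds carriers of neurotransmitters, osmolytes and creatine beside those of amino acids. None of its 8 tested members was called by edgeR (all genes 3.74%), where 4 had an unadjusted p under 0.05 (all genes 15.6%). DESeq2 called 1, SLC6A16 (all genes 6.97%), and limma-voom 3 (all genes 31.1%). SLC6A8 (chrX:153688099-153696593), the creatine transporter, was measured at 489, 521 and 493 CPM in sgControl and 911, 865 and 576 CPM in sgRFX6. The groups did not overlap, and the log2 fold change was 0.65 (SE 0.21, edgeR adjusted p = 0.151), with a median of 0.29 over its 50 nearest tested genes. SLC6A20, a proline and imino acid carrier, gave 40.7, 35.8 and 40.7 CPM against 65.4, 58.3 and 51.3 CPM, again apart (log2 fold change 0.58, SE 0.18, edgeR adjusted p = 0.144). Each of these was called in 4 of 15 alternatives. SLC6A16, an orphan member, gave 2.5, 5.42 and 2.68 CPM against 1.64, 1.07 and 1.18 CPM (log2 fold change -1.44, SE 0.41, edgeR adjusted p = 0.103). The taurine transporter SLC6A6 gave 674, 927 and 739 CPM against 654, 623 and 511 CPM, all lower in sgRFX6 (log2 fold change -0.39, edgeR adjusted p = 0.393). SLC6A12, a betaine and GABA carrier, was high in sgControl library 2 alone, at 18.6 CPM beside 2.0 to 4.06 CPM in the other libraries.

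**Figure D5:**
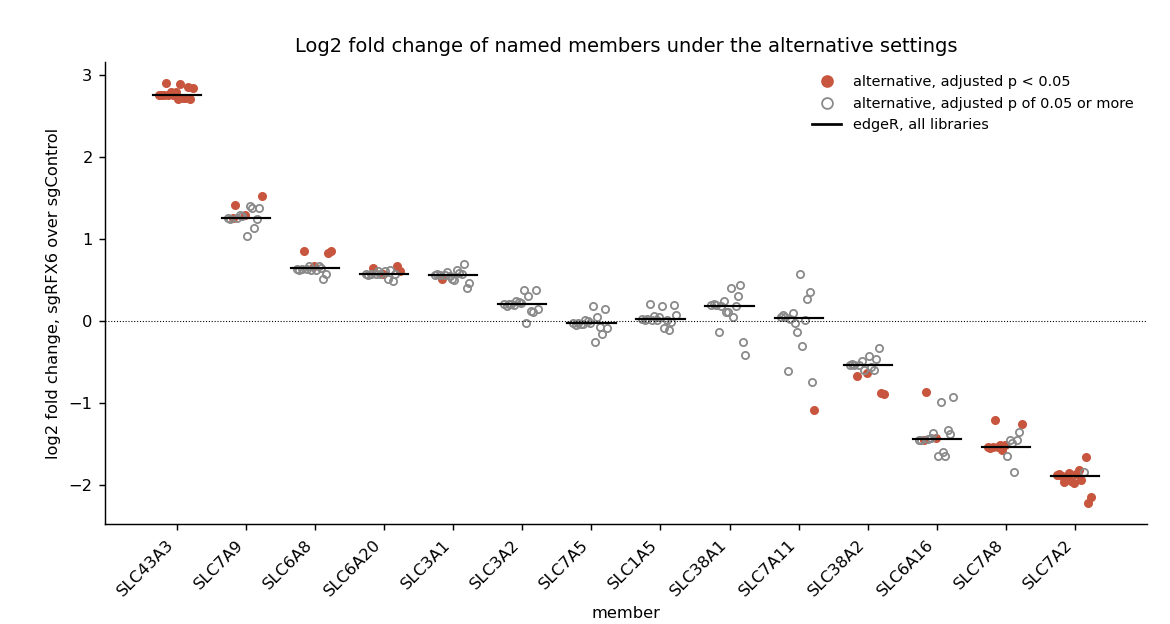
Log2 fold change of sgRFX6 over sgControl (y axis) for 14 members (x axis) with edgeR on all libraries (line) and under each alternative (points, filled where the adjusted p was under 0.05). SLC43A3 was called in every alternative, SLC7A2 in 14 of 15 and SLC7A8 in 9 of 15, and the points of SLC7A11 run from -1.08 to 0.57.

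The other 13 members had too few counts to be tested, with at most 21 in any library, and 9 members were at or below 3 counts in every library. In these libraries 3 counts corresponded to 0.121 to 0.188 CPM. SLC38A4 (SNAT4), a system A carrier known from liver, was counted 0, 0 and 3 times in sgControl and 0, 0 and 4 times in sgRFX6. SLC38A3 (SNAT3), the glutamine carrier of hepatocytes, was counted 0, 0 and 1 times and then 2, 3 and 2 times. SLC6A11, a GABA carrier, was counted 0, 1 and 0 times and then 1, 2 and 4 times. A difference was not detectable at this depth for these genes. SLC38A3 lies outside the rule for named genes and was chosen after its values were seen.

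Genes that share the work of these carriers were counted from fixed lists. Over all tested genes edgeR called 3.74%, DESeq2 6.97% and limma-voom 31.1%, and 15.6% had an unadjusted p under 0.05 in edgeR. Of 18 tested amino acid transporters of other families, mostly mitochondrial and lysosomal, edgeR and DESeq2 called 0 and limma-voom 6, and 3 had an unadjusted p under 0.05 in edgeR (median log2 fold change 0.02). Of 34 tested genes of amino acid sensing upstream of mTORC1, such as the Rag GTPases, the Ragulator subunits and the GATOR subunits, edgeR and DESeq2 called 0 and limma-voom 6, and 4 had an unadjusted p under 0.05 in edgeR (median 0.13). Of 18 tested enzymes of glutamine, glutamate and glutathione metabolism, edgeR and DESeq2 called 0 and limma-voom 5, and 1 had an unadjusted p under 0.05 in edgeR (median 0.08).

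The amino acid response through GCN2 and ATF4, which raises transporters and synthesis enzymes when amino acids are short, gave 2 genes higher and 1 lower of 24 tested by edgeR and the same numbers by DESeq2 (median -0.10). In edgeR 5 of the 24 had an unadjusted p under 0.05 (all genes 15.6%). Limma-voom called 7 higher and 1 lower (all genes 31.1%). Without both libraries that stood apart, edgeR called 5 higher and 2 lower, in a setting that called 25.2% of all genes. PYCR1, which makes proline, gave 0.0963, 0.486 and 0.475 CPM in sgControl and 5.21, 4.90 and 3.04 CPM in sgRFX6 (log2 fold change 3.59, SE 0.52, edgeR adjusted p = 0.0076). Its value in sgControl library 1 lay under the 0.144 CPM that 3 counts make there. On library sizes before TMM scaling, PYCR1 passed the filter on low counts, at about 0.484 CPM, only through its sgRFX6 libraries. Its separation and its call are to be read with that limit. DDIT3, which encodes the stress factor CHOP, had a log2 fold change of 1.0 (SE 0.23, edgeR adjusted p = 0.046), and VLDLR, a lipoprotein receptor, one of -1.0 (SE 0.23, edgeR adjusted p = 0.045). ATF4 itself was measured at 483, 498 and 411 CPM against 395, 360 and 272 CPM, all lower in sgRFX6 (log2 fold change -0.44, edgeR adjusted p = 0.317). Of 16 tested genes of branched-chain amino acid breakdown, 1 was higher and 0 lower by edgeR and by DESeq2, and 1 had an unadjusted p under 0.05 in edgeR (median 0.16). Limma-voom called 6 higher and 1 lower, edgeR with GC content corrected 2 higher, and edgeR without both libraries 4 higher. The gene called by edgeR was BCAT1, the cytosolic transaminase, at 3.47, 2.39 and 2.33 CPM against 15.8, 10.2 and 27.2 CPM (log2 fold change 2.70, SE 0.40, edgeR adjusted p = 0.00791). ATF4 was named here after its value was seen.

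Promoter letters were available for 60 starts of 39 members, each from 250 bases before to 50 bases after the start, and were searched on both strands. The C/EBP-ATF response element (TGATGNAAN), the letters that ATF4 binds with C/EBP partners, was found in 6 starts of SLC1A3, SLC1A4, SLC1A5, SLC38A1, SLC3A2 and SLC7A1. That is 10% of the members' starts, beside 3.61% of 35116 starts of all genes. The E-box was found in 10 starts (16.7%, all starts 7.26%) and the antioxidant response element (TGACNNNGC) in 7 (11.7%, all starts 13.3%). The X-box of RFX factors was searched only as a loose 14-letter pattern, in which many positions may hold any base. This pattern was found in 0 starts (all starts 2.47%), and the half-site of the X-box (GTTGCC) in 9 starts of 8 members (15%, all starts 12.2%). With so loose and rare a pattern and only 60 starts, the 0 does not show that RFX sites are absent. X-box and half-site were searched separately, and 1 stretch of letters may match both. Starts of 1 gene can overlap, the matches describe letters only, and 11 members, SLC43A3 and SLC7A2 among them, had no entry and were not searched.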

How the data were processed

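Trizol was used to extract total RNA, cDNA libraries were read on an Illumina HiSeq instrument, and the authors deposited 1 table of raw counts per gene. Per the submitters' processing notes the genome build was GRCh38 (hg38). The aligner, the counting program and the annotation are not given in the sources used here. Columns were assigned to samples by name and replicate number. The row without a gene name (at most 9.17e-05% of counts) was left out.

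Counts were filtered with filterByExpr (minimum count 10, minimum total 15), scaled by TMM and tested with edgeR 4.0.16 in R 4.3.3 (glmQLFit, glmQLFTest, no covariates) over all 6 libraries. The Benjamini-Hochberg adjustment covered 12839 genes, with a threshold of 0.05. CPM are counts per 1000000 of the TMM-scaled library, and the SE is the log2 fold change divided by the square root of F. The common biological coefficient of variation was 0.269. The permutation test was two-sided and exact. The test was also run on simulated data. GENCODE release 29 gave the gene positions, transcript lengths and GC content, and RefSeq (GRCh38.p14) the promoter letters. The guide came from the study's oligonucleotide list.

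Members named with values were those called, those with groups apart and an absolute log2 fold change of at least 0.5, the highest of each family per kilobase, the heavy chains with their light chains, SLC1A5, SLC38A1, SLC38A2 and SLC38A9, and those at the floor of 3 counts in 1 group only. Other members named with values (SLC7A1, SLC7A6, SLC7A6OS, SLC1A4, SLC1A7, SLC36A4, SLC43A2, SLC6A6, SLC6A12) were chosen after their values were seen. The members and lists were chosen with earlier results of these data known. Results were recomputed with DESeq2 1.42.0, with limma-voom (limma 3.58.1) and sample quality weights, RLE factors, library sizes alone, no filter, at least 1 CPM in 3 libraries, a replicate block, offsets for GC content (span 0.3, prior count 2) and each library left out. Leaving out both libraries that stood apart, and the members with no amino acid substrate, was added after the data were seen. Intervals were not computed, and the floor covers counting error only.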

Additional observations from a re-analysis of the deposited data

How the results depend on the processing

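SLC43A3 kept its direction and its call in 15 of 15 alternatives, SLC7A2 in 14 and SLC7A8 in 9. The members called numbered 5 with DESeq2, 16 with limma-voom, 8 with GC offsets and 13 without both libraries that stood apart, and 1 to 5 with 1 library left out. The higher members numbered 2, 9, 4 and 7 in the same settings, 1 to 3 with 1 library left out and 0 without the members that carry no amino acid. The lower members numbered 7 with limma-voom, 4 with GC offsets, 6 without both libraries and 0 to 2 with 1 library left out. With 1 library left out, the share of all genes called also moved, from 1.62% without sgControl library 3 to 5.52% without sgRFX6 library 3. The highest member count, 5, came in the setting with that highest share. Without both libraries, where 2 face 2, 27 members (73%) did not overlap, beside 66.7% of all tested genes. The median log2 fold change ran from -0.18 to 0.13 with 1 library left out. For RFX6 the log2 fold change was -0.96 with limma-voom and -0.87 without both libraries, and passed the test in both. The cause of these shifts was not tested.

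Some members reversed. SLC38A1 was at -0.13 with limma-voom, -0.41 without both libraries and -0.26 to 0.44 with 1 library left out. SLC7A11 was at -0.61 with limma-voom, -0.13 with GC offsets, -1.08 without both libraries and -0.74 to 0.57 with 1 library left out. SLC7A5 was at 0.01 with at least 1 CPM in 3 libraries and -0.25 to 0.18 with 1 library left out, SLC1A5 at -0.11 to 0.20 and SLC3A2 at -0.02 to 0.38.

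With the replicate block, 3 members were called, with a median of 0.00, SLC7A11 was at -0.02, and 648 genes were called in place of 480. The deviations of same-numbered libraries correlated at -0.484, 0.204 and -0.103, so the numbers were not taken as pairs. Depth limits the 13 members that were not tested.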
